A study of Mus musculus with 2 samples.

Results

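The genes described here code for proteins of the accessory structures of the mouse sperm tail. They were 10 genes chosen by name, Akap3, Akap4, Fscb, Ropn1, Ropn1l, Spa17, Cabyr, Odf1, Odf2 and Smcp, out of 36547 genes listed in the files, and all 10 had counts in both libraries. The question was at which stage of spermatogenesis each transcript appears and how its level compares between WT and Alkbh5-/- (KO) spermatids. The data were 1 WT and 1 KO library of testis cells from 12-week-old C57BL/6 mice, in which RNA was counted cell by cell, the KO animals being homozygous offspring of heterozygous parents that lacked the gene in every cell. ALKBH5 removes the N6-methyladenosine mark from RNA. The introduction of the study describes 1 mouse per genotype and its methods 3, so a library may pool animals. With 1 library per genotype no difference between WT and KO has a replicate check, no test was made, and the 95% intervals cover counting error only.

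The mouse sperm tail is built around a microtubule axoneme. In the principal piece the axoneme is wrapped by the fibrous sheath, whose main proteins AKAP4 and AKAP3 are anchors that hold protein kinase A through its regulatory subunits. ROPN1, ROPN1L, SPA17 and CABYR carry a domain related to that of the regulatory subunits and dock on the same anchors, and FSCB is a sheath protein that binds CABYR. Outer dense fibres, with ODF1 and ODF2 among their main proteins, run along the axoneme, and in the midpiece SMCP lies in the capsule of the mitochondrial sheath. Most of these structures are assembled late, and some of the messages, such as that of Smcp, are stored before they are translated.

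Positions are those of GENCODE vM21 on GRCm38, where each of the 10 is annotated as protein coding. Akap3 spans chr6:126853098-126874308 on the plus strand, Akap4 spans chrX:7067519-7078609 on the plus strand, and Fscb spans chr12:64471330-64474690 on the minus strand. Ropn1 (chr16:34649921-34678618, plus) and Ropn1l (chr15:31441211-31453737, minus) are related genes, and Odf1 (chr15:38219203-38226735, plus) shares the chromosome of Ropn1l. Spa17 lies at chr9:37603290-37613722 on the minus strand, Odf2 at chr2:29889221-29931746 on the plus strand and Smcp at chr3:92583867-92588997 on the minus strand. Spa17 overlaps Siae on the opposite strand, Ropn1l and Cabyr each overlap a processed pseudogene, and Odf2 overlaps a small nuclear RNA gene; whether the counting used strand is not given in the sources used here, so the values of these genes could hold reads of the overlapping gene.

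Promoter windows from RefSeq on GRCm38.p6, from 250 bases before to 50 bases after the start site, were matched for 8 of the 10 genes. The 8-base sequence TGATGTCA, a variant of the cAMP response element TGACGTCA, was searched on both strands. It was found in the windows of 4 of these 8 genes, against 1189 of all 32851 windows (3.62%), and the palindromic TGACGTCA was found in none of the 8, against 588 windows (1.79%). In Akap3 the match began 22 bases before the start site, with a second match that began 1 base before it. In Akap4 it began 35 bases and in Fscb 51 bases before the start site, and in Smcp it began at base 25 after it. These start sites are those of RefSeq, and that of Fscb lies upstream of the GENCODE gene start at chr12:64474690. The windows of Akap3 and Akap4 shared a run of 20 bases, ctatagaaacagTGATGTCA, which no other window held. The 100 bases before the start site are shown for the genes with a match there, with the match in capitals, because the genes of the main sheath anchors shared this run while their transcripts peaked at different stages. Akap3 is from chr6:126852998-126853097 on the plus strand, Akap4 from chrX:7067415-7067514 on the plus strand and Fscb from chr12:64474899-64474998 on the minus strand.
Akap3: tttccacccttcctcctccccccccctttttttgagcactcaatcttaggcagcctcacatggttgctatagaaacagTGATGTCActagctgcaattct
Akap4: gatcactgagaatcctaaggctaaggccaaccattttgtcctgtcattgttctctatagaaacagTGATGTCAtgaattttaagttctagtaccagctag
Fscb: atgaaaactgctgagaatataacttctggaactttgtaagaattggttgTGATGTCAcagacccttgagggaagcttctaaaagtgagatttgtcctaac
A match is a description of the sequence, and binding of a factor was not measured. The window of Ropn1l, whose transcript peaked earlier than the others, held neither sequence, nor did those of Ropn1, Spa17 and Odf2.

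The WT library held 5756 cells with 80283221 UMIs (unique molecular identifiers, 1 per captured RNA molecule) and the KO library 7012 cells with 82056760 UMIs, and 45 barcodes were shared by both (0.782% of WT and 0.642% of KO cells). Levels are given as CPM, the UMIs of a gene per 1000000 UMIs of the cluster. Alkbh5 itself had 607 UMIs in WT and 5 in KO, a log2 ratio of -6.96 (95% interval -8.58 to -5.72), which checks the labels. Cells were clustered without the genes described here and without the wider tail gene lists, so that these genes did not define the stages. Of the 15 clusters, 11 were germ cells by their markers, and each is called by a leading gene: spermatogonia-like (Crabp1), early spermatocyte-like (Rad51ap2), late spermatocyte-like (Piwil1, Pabpc6), round spermatid-like (Ssxb1, 1700029E06Rik, Cd46, Cst13) and sperm-like (Prss58, Prm1, Car2). The 7 spermatid clusters held 4652 WT and 3410 KO cells. The genotypes differed in how these cells were spread, since the sperm-like clusters Prm1 and Car2 held 1011 and 568 WT cells against 465 and 162 KO cells, while the round spermatid-like cluster Ssxb1 held 798 and 752.

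The genes peaked at different stages, and each gene peaked in the same cluster in both libraries, as the plot of levels along the germ cell clusters shows. Ropn1l was the earliest. It was at 93.6% of its peak in the late spermatocyte-like cluster Piwil1 in WT, and peaked in the next cluster, Pabpc6, in both libraries. Odf2 and Spa17 were also present in late spermatocyte-like cells. Odf2 stood at 14.7% of its peak in cluster Pabpc6 in WT and 13.8% in KO, and Spa17 at 32.9% and 30.9%. ODF2 is also a protein of the centrosome.

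**Figure D1:**
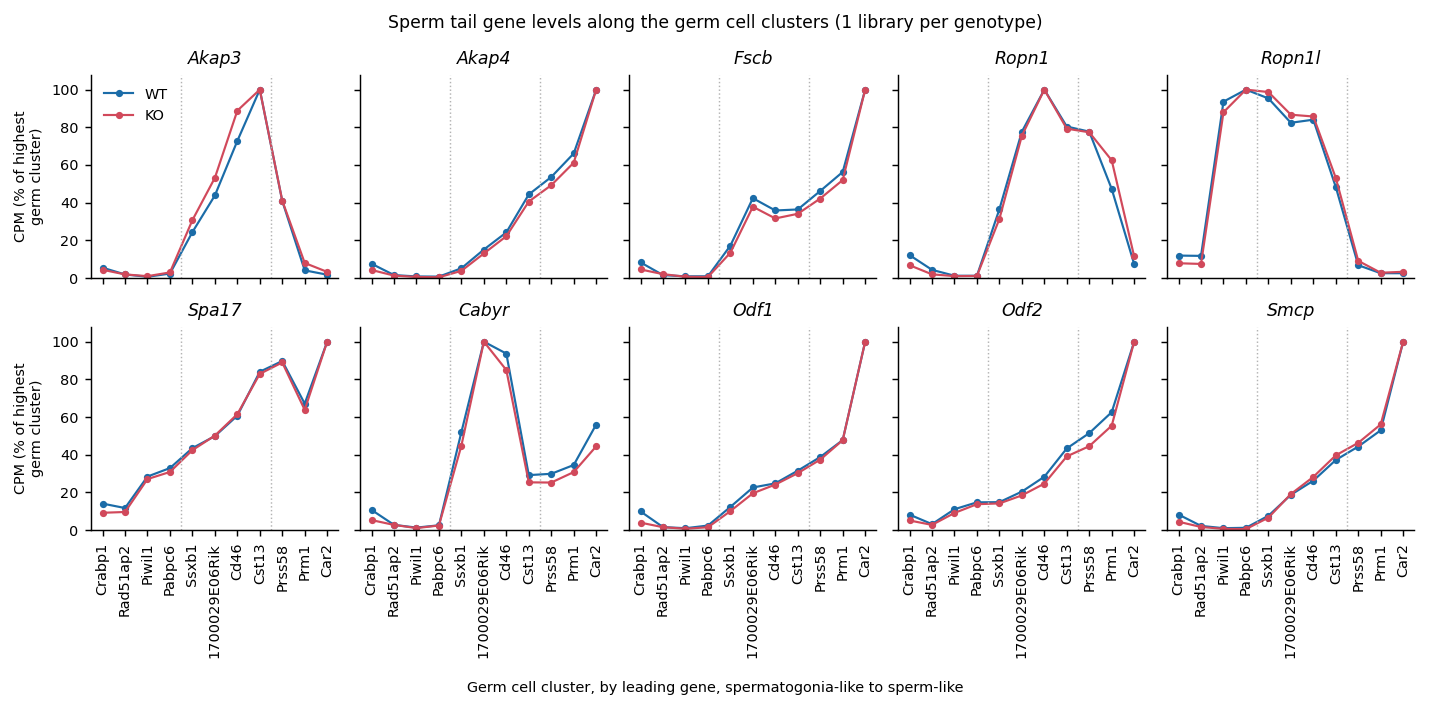
Levels of the 10 sperm tail genes in CPM, as a percentage of each gene's highest germ cell cluster (vertical axis), in 11 germ cell clusters from spermatogonia-like to sperm-like (horizontal axis), in WT (blue) and KO (red), with 1 library each. Dotted lines separate spermatocyte-like, round spermatid-like and sperm-like clusters; Ropn1l is high from late spermatocyte-like cells, Cabyr, Ropn1 and Akap3 peak in round spermatid-like cells, and the other 6 peak in the last sperm-like cluster in both libraries.

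The other 7 genes were first abundant in round spermatid-like cells. In the late spermatocyte-like cluster Pabpc6 they were at 0.771% (Akap4) to 2.55% (Cabyr) of their peak in WT and at 0.431% (Akap4) to 2.98% (Akap3) in KO. In the first round spermatid-like cluster, Ssxb1, Cabyr stood at 52.0% of its peak in WT, Ropn1 at 36.5%, Akap3 at 24.4% and Fscb at 17.2%, whereas Smcp was at 7.60% and Akap4 at 5.19%. Cabyr, Ropn1 and Akap3 thus stood nearer to their peak at this stage than Akap4 did.

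The peaks fell into groups. Cabyr peaked in cluster 1700029E06Rik, Ropn1 in cluster Cd46 and Akap3 in cluster Cst13, in that order, in both libraries. In the last sperm-like cluster, Car2, Akap3 was at 1.78% of its peak in WT and 3.28% in KO, and Ropn1l was at 2.56% and 3.32%. Ropn1 was still at 77.7% of its peak in cluster Prss58 in WT and at 7.41% in cluster Car2. Cabyr was lowest among the spermatid clusters in Cst13, at 29.2% of its peak in WT, and was back at 56.0% in Car2, a pattern of 2 phases seen in KO as well (25.2% in cluster Prss58 and 44.4% in Car2). Akap4, Fscb, Odf1, Odf2, Smcp and Spa17 were highest in cluster Car2 in both libraries. Together the 10 genes made up 1.07% of all UMIs in cluster Ssxb1 and 4.75% in cluster Car2 in WT, and 1.02% and 4.53% in KO. Most of the share in Car2 was Smcp, with 31129.5 of 47492 CPM in WT and 26416 of 45341 CPM in KO.

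UMIs of these genes were also found outside the germ cells. For Odf2, whose protein is also in the centrosome, such UMIs need not be background. In the somatic cells (Leydig-, Sertoli-, macrophage- and endothelial-like) Akap4 had 769.7 CPM in the 169 WT cells and 343 CPM in the 1750 KO cells, which is 13.9% and 4.99% of its peak. Over the 10 genes this share ran from 13.7% (Akap3) to 25.1% (Spa17) in WT and from 4.91% (Fscb) to 9.32% (Spa17) in KO, as the plot of UMIs in somatic cells shows. The 12 markers of later sperm, Prm1 and Prm2 among them, stood at 19.3% and 6.83% of their peak in the same cells. The somatic types were not alike, since these markers stood at 50.6% of their peak in the Sertoli-like cells of WT and 11.9% in those of KO, but at 4.90% and 4.02% in Leydig-like cells. These markers were also used to read the background within each germ cell cluster. In WT, Ropn1, Ropn1l, Spa17 and Cabyr exceeded 10% of their peak already in spermatogonia-like cells (10.7% for Cabyr to 14.1% for Spa17), and each was below its own share in the pooled somatic cells of WT. Against WT Leydig-like cells alone, Ropn1l (511 CPM in spermatogonia-like and 617 in Leydig-like cells) was lower, Cabyr was at 88.5 and 89.5 CPM, and Spa17 (504 and 389 CPM) and Ropn1 (256 and 225 CPM) were higher. No onset in spermatogonia was read from these levels. The sperm markers in spermatogonia-like cells stood at 9.10% of their peak in WT and 5.62% in KO, and at 5.78% and 2.03% without cells that Scrublet called doublets. In the late spermatocyte-like clusters they were at 0.475% to 1.42%, well below the shares of Ropn1l, Odf2 and Spa17 there.

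**Figure D2:**
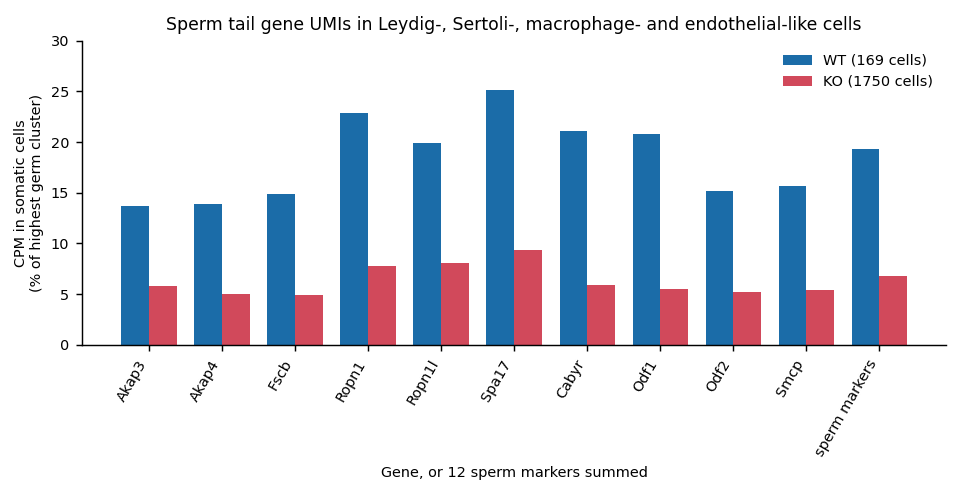
UMIs of the sperm tail genes and of 12 summed sperm markers in somatic cells, as a percentage of the CPM of the highest germ cell cluster (vertical axis), in WT (blue, 169 cells) and KO (red, 1750 cells). Bars are single libraries without error bars; all 10 genes and the markers are higher in the WT than in the KO library.

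Among the sheath anchors, Akap4 was higher in KO in 6 of 7 spermatid clusters, while Akap3 was lower in the clusters Cst13 and Prss58. The WT level of Akap4 in the clusters Ssxb1, 1700029E06Rik, Cd46, Cst13, Prss58, Prm1 and Car2 was 287, 836, 1339, 2452, 2964, 3655 and 5528 CPM, in this order. In KO it was 263, 898, 1528, 2794, 3391, 4212 and 6882 CPM. KO lay below WT in the first cluster and above it in the other 6, with log2 ratios of KO to WT of -0.13, 0.10, 0.19, 0.19, 0.19, 0.20 and 0.32. All 7 intervals excluded 0. The lower value at the first stage was not seen with another ordering: when the spermatids were ordered by a stage index, the mean stage from 1 to 5 weighted by stage markers, and split into 8 bins of near equal cell number, Akap4 was higher in KO in all 8 bins, by 0.27 (95% interval 0.15 to 0.39) in bin 1. In cluster Car2, where Akap4 had 27949 WT and 8629 KO UMIs, the ratio was 0.32 (95% interval 0.28 to 0.35). The median over all genes tested in that cluster was also above 0, at 0.17. In the first cluster, Ssxb1, the 12 sperm markers, which mark later stages, had 3179.8 CPM in WT and 1361 CPM in KO, and the part of this background in the lower KO value was not tested.

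Akap3 had 244, 438, 727, 999, 409, 40.9 and 17.8 CPM in the same clusters in WT and 239, 414, 692, 779, 319.9, 62.4 and 25.5 CPM in KO. The libraries were close in the first 3 clusters, KO was lower in Cst13 and Prss58, and KO was higher in Prm1 and Car2. The log2 ratio was -0.36 (95% interval -0.41 to -0.31) in Cst13 and -0.35 (95% interval -0.45 to -0.26) in Prss58. It was 0.61 (95% interval 0.38 to 0.83) in Prm1, from 409 WT and 279 KO UMIs, and 0.52 (95% interval -0.11 to 1.12) in Car2, where 90 and 32 UMIs left the direction undetermined. At the peak of the gene, KO thus had 0.779 times the WT level. In the 8 bins of the stage index the lowest ratios were -0.41 in bin 5 and -0.64 in bin 6, and the last bin gave 0.25 (95% interval -0.29 to 0.76). The higher KO level seen in cluster Prm1 was thus not seen in bin 7, which gave -0.20 (95% interval -0.47 to 0.08).

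The balance of the anchors differed between the libraries at these stages. There were 1.18 Akap4 UMIs per Akap3 UMI in cluster Ssxb1 in WT and 1.10 in KO. In cluster Cst13 the figures were 2.45 and 3.59, in Prss58 they were 7.25 and 10.6, and in Prm1, where KO was the lower, 89.4 and 67.5. These are ratios of UMIs within a library, so they do not depend on the total counts. They are read between clusters and libraries and not as relative amounts. In Prm1 Akap3 was at 4.09% of its peak in WT and 8.01% in KO. It was at 5.51% and 4.39% in spermatogonia-like cells, and at 0.679% and 1.00% in the late spermatocyte-like cluster Piwil1. The part of background in the figures of Prm1 was not tested.

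Fscb, the calcium-binding sheath protein, followed Akap4. It had 84.2, 207, 175, 178, 226, 275 and 489 CPM in WT and 82.4, 232, 194, 209, 258, 319 and 612 CPM in KO. KO was near WT in Ssxb1, though 0.45 above it in bin 1 (95% interval 0.23 to 0.68), and above it in the other 6 clusters, with ratios from 0.14 (Cd46) to 0.32 (95% interval 0.21 to 0.44) in Car2. In WT and KO alike Fscb had a first high value in cluster 1700029E06Rik, at 42.4% and 37.8% of its peak, before the higher values of the sperm-like clusters.

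**Figure D3:**
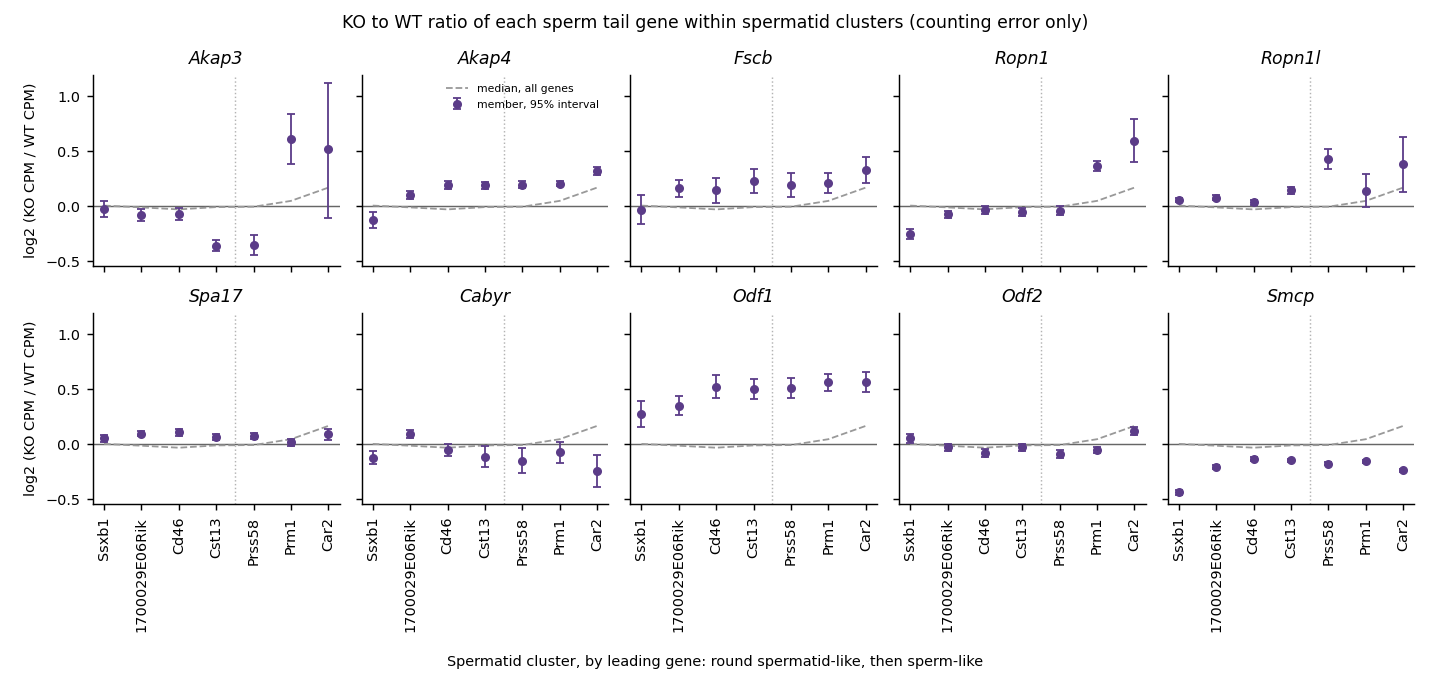
The log2 ratio of KO to WT CPM (vertical axis) of each sperm tail gene in the 7 spermatid clusters (horizontal axis), with exact 95% intervals that cover counting error only; the dashed line is the median over all genes tested in the cluster and the dotted line separates round spermatid-like from sperm-like clusters. Odf1 lies above 0 and Smcp below 0 in all 7 clusters, and Akap3, Akap4, Fscb, Ropn1, Cabyr and Odf2 have values on both sides of 0.

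Of the proteins that dock on the anchors, Ropn1 was higher in KO in the last 2 sperm-like clusters, Ropn1l was higher in Prss58, where little of it was left, Cabyr was lower in Car2, and the ratios of Spa17 were close to 0. Ropn1, the ropporin gene, had 768, 1633, 2103, 1691, 1634, 994 and 156 CPM in WT and 644, 1549, 2051, 1626, 1587, 1281 and 235 CPM in KO. KO was below WT in the first 5 clusters, with the lowest ratio in Ssxb1 (-0.25), and above it in the last 2, at 0.37 (95% interval 0.32 to 0.41) in Prm1 and 0.59 (95% interval 0.40 to 0.79) in Car2. In Car2, however, Ropn1 was at 7.41% of its peak in WT, below its share in WT somatic cells (22.8%). In KO it was at 11.5% there, beside 7.76% in somatic cells. In the late spermatocyte-like cluster Pabpc6 Ropn1 was at 1.21% of its peak in WT and 1.12% in KO. The part of background in its Car2 values was not tested. With the 8 bins the higher KO level stood at the end of the order, while the lower level of Ssxb1 was not seen in bin 1 (0.08, 95% interval 0.01 to 0.15). Bins 1 to 6 lay between -0.08 and 0.08, bin 7 was at 0.15 and bin 8 at 0.97 (95% interval 0.86 to 1.08), from 277 CPM in 786 WT cells and 541 CPM in 221 KO cells. For cluster Car2 the stage index from summed counts was 4.66 in WT and 4.61 in KO. Each marker sum was scaled to the highest cluster of its own library, so these values do not measure a difference in stage. The part of stage within the cluster in the ratio of Ropn1 was not tested.

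Ropn1l, a paralogue whose protein is also found in the radial spokes of the axoneme, had 4082, 3528, 3598, 2069, 292, 110.1 and 109.8 CPM in WT and 4239.6, 3723, 3682, 2282, 392, 121 and 143 CPM in KO. KO was above WT in all 7 clusters, by 0.03 (Cd46) to 0.43 (95% interval 0.33 to 0.52) in Prss58, and the interval included 0 in Prm1 only (-0.01 to 0.29). The 2 largest ratios stood in the sperm-like clusters Prss58 and Car2, where the gene was at 6.81% of its peak or less in WT, below its share in WT somatic cells (19.9%). In KO it was at 9.13% in Prss58 and 3.32% in Car2, beside 8.10% in somatic cells. The ratio of Prss58 was not seen in the bins, where the highest value was 0.23 (bin 5) and bin 6 gave 0.05 (95% interval -0.05 to 0.15). In Prm1, 43.2% of WT and 43.5% of KO cells had a UMI of Ropn1l after thinning to equal depth, against 48.8% and 45.2% of spermatogonia-like cells. In Car2 the shares were 40.0% and 51.3%, below that of spermatogonia-like cells in WT and above it in KO. No difference was read from Prm1 or, with WT below that share, from Car2. In the late spermatocyte-like clusters the ratio was -0.08 in Piwil1 and 0.00 (95% interval -0.02 to 0.03) in Pabpc6, where the gene peaked.

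Cabyr, the calcium-binding fibrous sheath protein, had 429.8, 826, 774, 241, 247, 285 and 463 CPM in WT and 396, 881, 749, 223, 222, 271 and 392 CPM in KO. KO was above WT in 1700029E06Rik, the peak, at 0.09 (95% interval 0.05 to 0.13), and below it in the other 6, down to -0.24 (95% interval -0.38 to -0.10) in Car2, with intervals that included 0 in Cd46 (-0.10 to 0.01) and Prm1 (-0.17 to 0.02). In the bins Cabyr was higher in KO in bins 1 to 4, from 0.07 to 0.15, and lower in bins 5 to 8, from -0.16 to -0.11, so the lower values of Ssxb1 and Cd46 were not seen there and those of the late stages were. Of the 6 genes that peaked in Car2 all but Smcp were higher there, Odf2 (0.12) and Spa17 (0.09) by less than the median over all genes. In bin 8 Odf2 (-0.05) and Spa17 (-0.10) lay below 0, with intervals that excluded it. Spa17, the sperm autoantigenic protein, had 1558, 1787, 2175, 3010.2, 3214, 2404 and 3582 CPM in WT and 1618, 1912, 2345, 3161, 3392, 2433 and 3813 CPM in KO. Its 7 ratios were all between 0.02 (Prm1) and 0.11 (Cd46), the smallest range of the 10 genes.

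Odf1, which codes for a small heat shock protein that helps to join the sperm head to the tail, was higher in KO in all 7 spermatid clusters. It had 87.7, 161, 177, 225, 276, 340.1 and 712 CPM in WT and 106, 206, 254, 318, 394, 502 and 1053 CPM in KO. Every KO value lay above the WT value of the same cluster, with log2 ratios of 0.28, 0.35, 0.53, 0.50, 0.51, 0.56 and 0.56, and in cluster Car2 KO had 1.48 times the WT level from 3600 WT and 1320 KO UMIs, with an interval of 0.47 to 0.66 on the log2 scale. In the 8 bins the ratio ran from 0.39 to 0.58. In the somatic cells Odf1, like the rest of the sperm tail genes, was lower in KO (148 and 57.7 CPM). The part of this background in the ratios of Odf1 was not tested.

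Odf2 had smaller ratios, on both sides of 0. It had 787, 1084, 1502, 2299.6, 2729.9, 3320.1 and 5305 CPM in WT and 817, 1063, 1424, 2257, 2569, 3197 and 5770.0 CPM in KO. Its ratios ran from -0.09 (95% interval -0.12 to -0.05) in Prss58 to 0.12 (95% interval 0.08 to 0.16) in Car2, and 2 of 7 were above 0. There were 0.0977 Odf1 UMIs per Odf2 UMI in cluster Cst13 in WT and 0.141 in KO, and 0.134 and 0.182 in Car2.

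Smcp, the cysteine-rich protein of the mitochondrial capsule, was lower in KO in all 7 clusters. It had 2366, 5831, 8165, 11582, 13802, 16487 and 31129.5 CPM in WT and 1748, 5051, 7458, 10479, 12235, 14818 and 26416 CPM in KO. The ratios were -0.44, -0.21, -0.13, -0.14, -0.17, -0.15 and -0.24, with an interval of -0.25 to -0.22 in Car2, where the gene peaked with 157376 WT and 33123 KO UMIs. The lowest ratio was in Ssxb1, where the sperm markers had 3179.8 CPM in WT and 1361 CPM in KO. Smcp was also lower in KO in the late spermatocyte-like cluster Pabpc6 (379 and 143 CPM, 1.22% and 0.540% of the peak), where the sperm markers differed in the same direction (2637 and 1074 CPM). In cluster Car2 the sperm markers stood at 230770 CPM in WT and 183346 CPM in KO, and in Prss58, where the ratio of Smcp was -0.17 (95% interval -0.19 to -0.16), at 195321 and 177176 CPM. The part of these markers in the ratio of Smcp was not tested.

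**Figure D4:**
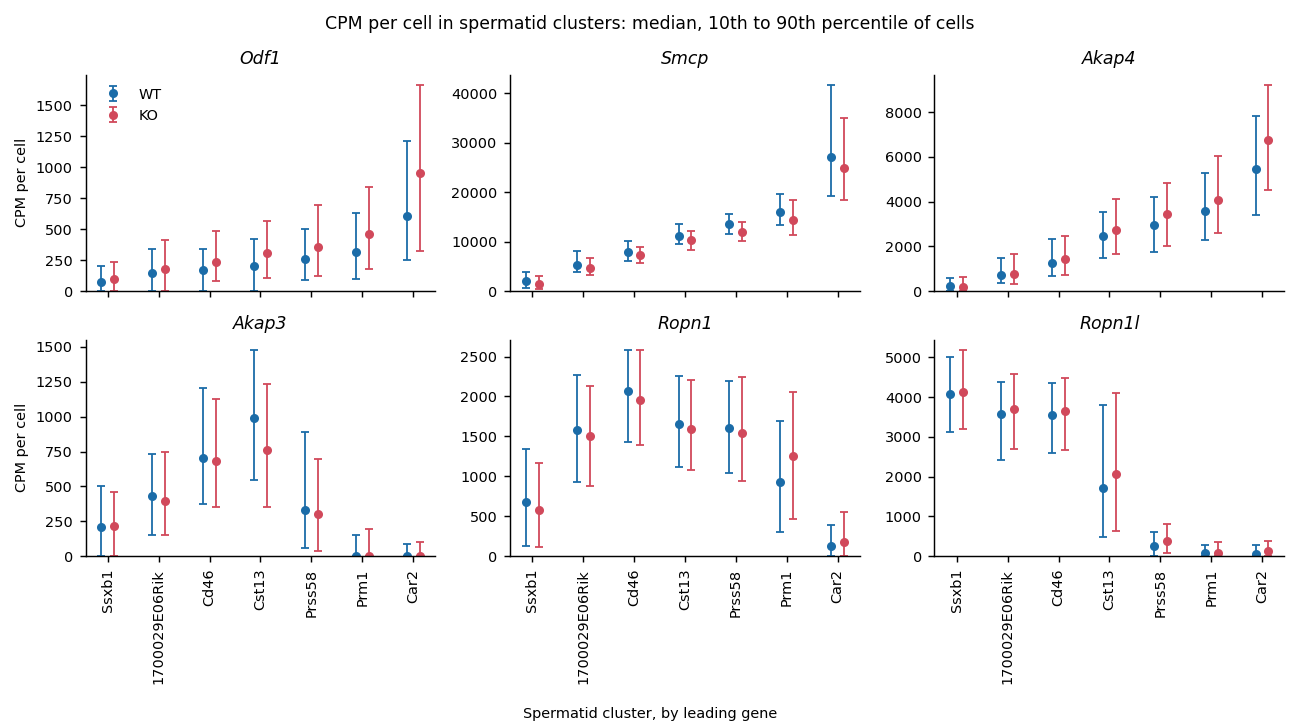
CPM per cell (vertical axis) of 6 sperm tail genes in the 7 spermatid clusters (horizontal axis) in WT (blue) and KO (red); points are medians over cells and bars run from the 10th to the 90th percentile of cells, which are not replicates. The cells of the libraries overlap widely for each gene, and the median of Odf1 is higher and that of Smcp lower in KO in each cluster.

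Cells of the same cluster varied widely, as the plot of CPM per cell shows. For Odf1 in cluster Car2 the median cell had 602 CPM in WT and 955 in KO, and the 10th to 90th percentiles were 247 to 1213 and 327 to 1664. The share of cells with a UMI was compared after each cell had been thinned to 5729 UMIs, which left out 362 WT and 914 KO cells of all types. Odf1 was then found in 37.3% of WT and 43.2% of KO cells in Ssxb1, in 72.3% and 82.1% in Cst13 and in 83.2% and 94.2% in Prm1. Akap3 was found in 99.8% and 97.9% of cells in Cst13 and in 18.5% and 27.2% in Prm1, so that near its peak nearly every cell carried the message in both libraries. Ropn1l was found in 73.8% and 85.8% of cells in Prss58. In cluster Crabp1, which should lack the sheath anchors, Akap3 was found in 13.6% and 10.8% of the thinned cells. Odf1 was found in 14.8% and 11.6% of the same cells. In the late spermatocyte-like cluster Pabpc6 Akap3 was found in 11.6% of WT and 11.9% of KO cells. These shares of Akap3 lay below those in Prm1, by less in WT than in KO. The part of background in Prm1 was not tested.

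Pooling all spermatids gave other ratios than the comparison within clusters, since the cells of the genotypes were spread differently over the clusters. Akap4 had 2039 CPM in WT and 1859.5 in KO over all spermatids, a ratio of -0.13, although it was 0.19 in round spermatid-like and 0.12 in sperm-like cells. Odf2 was at -0.28 over all spermatids and at 0.01 with equal weight for each of the 7 clusters. Smcp was at -0.48 over all spermatids and -0.19 (95% interval -0.20 to -0.19) with equal weight, and Odf1 at 0.20 and 0.52 (95% interval 0.48 to 0.56). With equal weight the remaining ratios were 0.23 for Akap4, 0.22 for Fscb, 0.08 for Ropn1l, 0.07 for Spa17, 0.00 for Ropn1, -0.06 for Cabyr and -0.18 for Akap3.

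**Figure D5:**
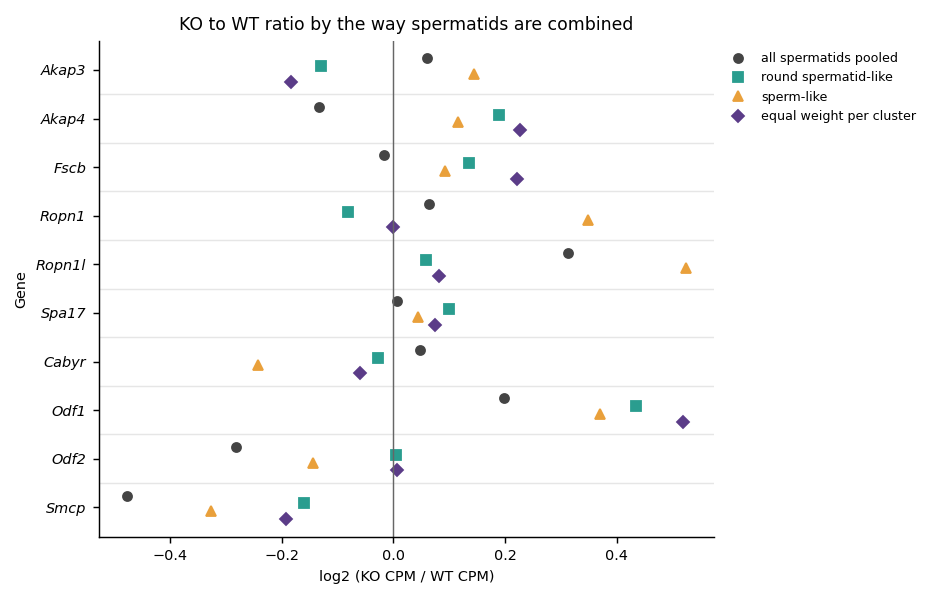
The log2 ratio of KO to WT CPM (horizontal axis) of each sperm tail gene (vertical axis) over all spermatids pooled, over round spermatid-like cells, over sperm-like cells, and with equal weight per cluster. For Akap4 the pooled value lies below 0 while the other 3 lie above it, and for Akap3 the pooled value lies above 0 while the value with equal weight lies below it.

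A gene was called when 25% or more of WT or of KO cells had its UMI and its levels were far enough apart. The mean scaled levels, each with 1 added, had to be 0.25 or more apart on the natural log scale. The added 1 shrinks differences at low levels. Odf1, at 1.55 in WT and 2.11 in KO in round spermatid-like cells, had a difference of 0.20 by this measure. In sperm-like cells Odf1 had 0.21 and Ropn1 0.24. All 10 sperm tail genes met the cell share in each group of cells. Over all spermatids 1 gene was higher in KO, Ropn1l, against 4.01% of 4264 genes, and 1 was lower, Smcp, against 2.42%. At equal weight per cluster Ropn1l had a ratio of 0.08, beside 0.31 over all spermatids. In round spermatid-like cells none of the 10 was called in either direction, against 2.13% of 5222 genes higher and 0.651% lower. In sperm-like cells Ropn1l was called higher, against 9.20% of 2239 genes, and none lower, against 2.32%. Its pooled ratio there, 0.52, lay above each of the 3 ratios within the sperm-like clusters. With equal weight per cluster 1 gene, Odf1, was higher, against 2.73% of 3955 genes, and none lower, against 0.759%. With 10 genes, 1 called gene is a share of 10%, and no share can lie between that and 0. The median log2 ratio of the 10 genes was 0.03 over all spermatids, beside 0.13 over all genes tested, 0.03 beside -0.02 in round spermatid-like cells, 0.10 beside 0.08 in sperm-like cells, and 0.04 beside 0.01 with equal weight.

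The levels of 4 of the genes were compared with those of 10115 genes, as log2(CPM + 1), over the 11 germ cell clusters of both libraries, 22 points that share libraries and cell mixtures. The gene nearest to Akap4 was Gapdhs, the sperm glycolytic enzyme bound to the fibrous sheath (Pearson r = 0.996), followed by 4930571K23Rik and Akap1, another anchor of protein kinase A. Odf1 was nearest to Ms4a14 (r = 0.991), 1700009N14Rik and Prkcq. Odf2 was nearest to Isca1 (r = 0.991), Dbil5 and Pgk2, and Spa17 to Rgs22 (r = 0.973), Ppp1r11 and Hspa4l. Among the 10 genes themselves, Akap4 and Smcp were the pair with the highest r (0.99) and Akap4 and Ropn1l the pair with the lowest (-0.53), while Akap3 and Akap4 had r = 0.53.

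Other genes of the tail were read from lists. Of 13 further genes of the fibrous sheath and of protein kinase A, 9 met the cell share over all spermatids, and 1 was called higher and 1 lower in KO, beside 4.01% and 2.42% of all genes tested. The higher one was Fsip2, a large sheath protein, with 333 CPM in WT and 449 in KO, a log2 ratio of 0.43 (95% interval 0.40 to 0.46). The lower one was Prkar2a, the regulatory subunit of protein kinase A that the anchors hold, with 188 and 126 CPM and a ratio of -0.57. With equal weight per cluster neither was called, at 0.22 and -0.13. The highest and lowest ratios of this list were those of Slc25a31, a sperm ADP/ATP carrier (1.03, 818 WT and 1217 KO UMIs), and Rhpn1, which binds ropporin (-0.68, 145 and 66 UMIs). Both lay below the cell share, and both kept their side with equal weight per cluster (0.85 and -0.90). Akap14, of the same list, met the cell share over all spermatids at a ratio of 1.01, above that of Fsip2. At 27.8 CPM in WT and 55.7 in KO it was not called, as the criterion adds 1 to the mean levels.

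No gene of the other 4 lists was called over all spermatids, and in sperm-like cells 2 of the 13 above the cell share were called higher in KO, beside 9.20% of all genes tested, and none lower: Odf3, an outer dense fibre gene (36.3 CPM in WT and 88.5 in KO), and Spata19, which codes for a mitochondrial protein of the midpiece (2591 and 3472 CPM). These 2 are named after their values were seen. With equal weight per cluster neither was called, at -0.04 and 0.07, and Odf3 was at -0.13 in round spermatid-like cells. The 10 further outer dense fibre and related genes, 8 of them above the cell share, ran from -0.27 (Spag4, a dense fibre partner of ODF1) to 0.68 (Spag5). The 8 genes of the mitochondrial sheath ran from -0.32 to 0.41, with Gpx4, the other main protein of the mitochondrial capsule, the lowest. At 2025 CPM in WT and 1619 in KO over all spermatids, Gpx4 lay on the same side as Smcp. With equal weight per cluster Gpx4 was at -0.24. The 4 annulus genes ran from -0.16 (Sept4) to 0.58 (Sept7), and the 5 tektin genes of the axoneme from -0.12 (Tekt5) to 0.12 (Tekt3). With equal weight per cluster all 5 tektin genes were lower in KO, from -0.31 to -0.11.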

How the data were processed

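Testis cells of 1 WT and 1 KO library were captured with the GEXSCOPE system. The authors aligned the reads, collapsed molecular identifiers and deposited counts, 1 UMI count per gene and cell, with no normalization; the submitters' processing notes name featureCounts 1.6.2 for counting and STAR 2.5.3a for alignment. The methods name a human genome build although the gene symbols are those of mouse. Strand use in counting is not given in the sources used here. Here, cells were integrated and clustered with Seurat 5.3.0 in R 4.3.3 (2000 variable features without the sperm tail genes, 20 anchor dimensions, 30 principal components, resolution 0.3, seed 1), and clusters were named by marker genes detected in at least 10% of cells at 2 times the level elsewhere, with at least 3 markers. Scrublet in scanpy 1.11.5 marked 243 WT cells (4.22%) and 348 KO cells (4.96%) as doublets, which were kept in the main values.

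UMIs were summed per cluster and genotype with numpy 2.4.6 and pandas 2.3.3, and exact conditional 95% intervals of the ratios came from scipy 1.17.1. Depth was 5756 cells and 80283221 UMIs in WT, and 7012 cells and 82056760 UMIs in KO. No test between genotypes was made, as each had 1 library. The size criterion needed a UMI in at least 25% of cells, as in the study, and a natural log difference of at least 0.25. The difference was that of the mean count scaled to 10000 with 1 added. Medians used genes with at least 10 UMIs. The scripts were tested on simulated data. The genes named were the 10 sperm tail genes, Alkbh5, genes of the wider lists past the size criterion in spermatids or at the ends of a list, and the 3 genes with the highest Pearson r to each of Akap4, Odf1, Odf2 and Spa17 among genes with at least 1000 UMIs. These genes and lists were chosen with earlier results of these data known. Akap14, Odf3 and Spata19 were named after their values were seen. The 16 alternatives changed clustering, cell filters, totals, weights and thresholds.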

Additional observations from a re-analysis of the deposited data

Results flagged for a closer look

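Of the 10 sperm tail genes, Akap3 and Ropn1 had log2 ratios of at least 0.25 in size on both sides of 0 in different spermatid clusters, each with an interval off 0. Akap4, Odf2 and Cabyr also had intervals on both sides of 0, with smaller ratios on at least 1 side. The log2 ratio of KO to WT of Akap3 was -0.36 in the round spermatid-like cluster Cst13 and -0.35 in the sperm-like cluster Prss58, but 0.61 in the sperm-like cluster Prm1. That of Ropn1 was -0.25 in the round spermatid-like cluster Ssxb1, 0.37 in Prm1 and 0.59 in Car2. In Car2 the WT level of Ropn1 was 7.41% of its peak, below its share in WT somatic cells (22.8%) and above that in cluster Pabpc6 (1.21%). In the bins of the stage index, Akap3 was at -0.20 (95% interval -0.47 to 0.08) in bin 7 and 0.25 (-0.29 to 0.76) in bin 8. After thinning, 18.5% of WT and 27.2% of KO cells in Prm1 had its UMI, beside 13.6% and 10.8% of spermatogonia-like cells. Ropn1 was at 0.08 (0.01 to 0.15) in bin 1, with its lowest value, -0.08, in bin 3. The intervals cover counting error only, and with 1 library per genotype the difference between stages was not tested.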

How the results depend on the processing

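No paired analysis was possible because each genotype has 1 library, and no replicate could be left out for the same reason. Of 16 alternatives, 11 were applied to the ratios, and none of these turned the direction of a called ratio. The called ratios were those of Ropn1l over all spermatids and in sperm-like cells and that of Smcp over all spermatids. Ratios not called in the main values did change sign over all spermatids under some alternative. These were the ratios of Akap3, Akap4, Cabyr, Fscb, Odf2, Ropn1 and Spa17, and that of Akap4 ran from -0.27 to 0.23. The ratios within single clusters were not put under the alternatives. Over all spermatids, the count of sperm tail genes called lower in KO was 2 (Odf2 and Smcp) in place of 1 with totals without protamine and transition protein genes and with ratios centred on the median of all genes, and 0 with equal weight per cluster, equal weight per bin, or a CPM ratio of at least 2. The count called higher was 0 in place of 1 with centring and with a CPM ratio of at least 2, and equal weight per cluster and per bin each called Odf1 in place of Ropn1l. In sperm-like cells the count called lower was 1 (Smcp) in place of 0 at clustering resolution 0.8, with the tail genes kept among the variable features, without protamine and transition protein genes, and with centring. There too equal weight per cluster called Odf1 in place of Ropn1l, and the count called higher was 0 in place of 1 with centring, equal weight per bin and a CPM ratio of at least 2. The median ratio of the 10 genes over all spermatids was 0.03, and -0.11 with centring. The number of genes first reached before round spermatids was 5 in WT and 3 in KO at 10% of the peak. The WT count includes Ropn1 (12.2%) and Cabyr (10.7%), which passed 10% before that stage only in spermatogonia-like cells. No onset was read from those cells, so the counts are not read as a difference in onset. The number was 3 in WT without doublets, 10 in WT and 5 in KO at 5% of the peak, and 2 in WT at 25% of the peak. Every other value of these counts and medians moved by at most 1.5 times (counts) or 0.1 (medians). Each genotype has a single library, and depth limits the low levels, such as Akap3 in Car2 (90 WT and 32 KO UMIs) and Ropn1l in Prm1.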
